A study of Mus musculus with 6 samples.

Results

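The mitochondrial ribosomal proteins described here are the genes whose symbol begins with Mrpl or Mrps followed by a digit, the naming scheme for proteins of the large and small subunits of the ribosome inside mitochondria. By that rule 76 of the 18193 genes named on the arrays were members, and all 76 lay above the filter on dim genes (an intensity of 163.6). Of these, 49 belong to the large subunit and 26 to the small subunit. The remaining member, Mrps36, carries the ribosomal name but is known today as a subunit of the 2-oxoglutarate dehydrogenase complex of the citric acid cycle, so it was kept by its name and described apart. The large-subunit count includes Mrps30 and Mrps18a, which bear small-subunit names but sit in the large subunit in structures of the mammalian mitoribosome.

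Mitochondrial ribosomes translate the messenger RNAs of mitochondrial DNA, which encode core subunits of the respiratory chain and of ATP synthase. Every one of their proteins is encoded in the nucleus, made on cytosolic ribosomes and imported. Some have counterparts in the bacterial ribosome and others are found only in mitochondria. Brown adipocytes are rich in mitochondria, which they use to release heat through the uncoupling protein UCP1, and PGC-1alpha (Ppargc1a) and PGC-1beta (Ppargc1b) are coactivators that raise transcription of nuclear genes for mitochondria.

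RNA was measured on 6 one-colour arrays, 2 for each of 3 kinds of brown fat cell, all made immortal with the SV40 large T antigen and taken after 7 days of differentiation. The wild-type cells were at passage 4, and the second wild-type label adds that they came from brown fat of a mouse of mixed background. The second group, called knockout-control, was PGC-1alpha -/- and expressed a control siRNA. The third, called knockdown, was PGC-1alpha -/- and expressed an siRNA against PGC-1beta, so both of these groups lack PGC-1alpha and both carry an siRNA. No siRNA is named for the wild type and no passage for the other groups, so genotype, siRNA and line cannot be told apart in a comparison with wild type. The design text speaks of biological replicates, and how far they were separate cultures, lines or animals is not stated. In such bulk RNA, fewer cells of a type and less RNA per cell cannot be told apart.

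The 6 arrays were alike in overall brightness, with median intensities from 220.9 to 242.7. Pearson's r between the 2 arrays of a group, over 13344 genes with a value everywhere, was 0.989 for wild type, 0.978 for knockout-control and 0.963 for knockdown. Knockdown array 1 correlated slightly better with knockout-control array 2 (0.967) than with knockdown array 2. Ppargc1b was at 2850 and 3162 in wild type, 1862 and 2302 in knockout-control, and 534 and 224 in knockdown, 5.53-fold lower than in knockout-control (limma, adjusted p = 0.022). The adjusted p rose to at most 0.146 without either knockout-control array. Ppargc1a was at 1338 and 1319, then 767 and 830, then 1146 and 648, and its difference between knockout-control and wild type did not pass (adjusted p = 0.125). No source used here places its probes relative to the deletion, and they check little. Eif2s3y, a Y-linked gene, gave 872 and 961 for wild type, 6.25 on knockout-control array 2 and 5.13 on knockdown array 2, and had no value on the others. Xist had no value in wild type and one on each of the other 4 arrays, so the wild-type cells also differ from the rest in sex-linked genes. Brown adipocyte markers were present, with Ucp1 at 4488 and 4761 in wild type, 4199 and 3725 in knockout-control, and 156 and 105 in knockdown.

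For the promoters of the members, 67 had a sequence in the RefSeq table of build GRCm38.p6, each covering 250 bases before and 50 after the gene's start. Short motifs of factors known to act on nuclear genes for mitochondria were counted on both strands. The ETS core CCGGAAG, bound by GABP (NRF-2), was in 25 of the 67 (37.3%), against 12.9% of 17491 protein-coding genes. The palindromic NRF-1 motif, GCGCA followed directly by TGCGC, was in 3 (4.48%, against 1.47%), and TGCGCA, one arm of the longer NRF-1 consensus, in 21 (31.3%, against 11.0%). The palindrome does not contain TGCGCA, but the 2 can overlap at its ends. The YY1 motif AAGATGG was in 13 (19.4%, against 7.18%), and AAGGTCA, the motif of the estrogen-related receptors through which PGC-1 proteins act, in 4 (5.97%, against 4.73%). These counts are a description, with no test. The stretches before the start are printed for 5 members: the pair lower in knockdown than in knockout-control (Mrps36, Mrpl34), members with some of the lowest knockdown values against wild type (Mrpl47, Mrpl3), and Mrpl39, which holds the full NRF-1 motif. Capitals mark a motif, and each is read 5′ to 3′ on the gene's strand.
Mrps36 promoter, chr13:100744660-100744909, minus strand: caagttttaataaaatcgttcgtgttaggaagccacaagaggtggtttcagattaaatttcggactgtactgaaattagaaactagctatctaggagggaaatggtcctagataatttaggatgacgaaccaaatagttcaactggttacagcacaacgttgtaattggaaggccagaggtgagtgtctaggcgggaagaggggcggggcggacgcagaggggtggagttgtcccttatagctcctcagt
Mrpl34 promoter, chr8:71464676-71464925, plus strand: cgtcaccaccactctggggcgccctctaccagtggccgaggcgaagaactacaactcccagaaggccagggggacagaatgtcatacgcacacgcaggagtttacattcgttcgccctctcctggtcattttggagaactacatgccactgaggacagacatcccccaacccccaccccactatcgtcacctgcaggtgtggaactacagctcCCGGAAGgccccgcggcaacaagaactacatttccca
Mrpl47 promoter, chr3:32736756-32737005, minus strand: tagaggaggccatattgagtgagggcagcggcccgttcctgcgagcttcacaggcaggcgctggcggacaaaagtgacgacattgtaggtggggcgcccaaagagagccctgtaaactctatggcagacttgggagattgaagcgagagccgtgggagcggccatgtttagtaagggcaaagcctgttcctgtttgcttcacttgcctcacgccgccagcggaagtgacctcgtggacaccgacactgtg
Mrpl3 promoter, chr9:105053018-105053267, plus strand: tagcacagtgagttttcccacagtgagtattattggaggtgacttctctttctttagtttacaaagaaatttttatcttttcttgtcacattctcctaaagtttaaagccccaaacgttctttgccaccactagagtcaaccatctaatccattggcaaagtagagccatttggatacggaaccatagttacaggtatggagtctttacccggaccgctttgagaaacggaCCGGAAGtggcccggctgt
Mrpl39 promoter, chr16:84735245-84735494, minus strand: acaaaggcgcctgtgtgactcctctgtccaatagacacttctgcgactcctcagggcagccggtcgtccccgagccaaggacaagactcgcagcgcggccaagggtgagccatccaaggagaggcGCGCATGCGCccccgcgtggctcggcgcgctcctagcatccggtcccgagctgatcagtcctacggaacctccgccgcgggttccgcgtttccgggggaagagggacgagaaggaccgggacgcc

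In Mrpl34 the ETS core begins 37 bases before the start, and in Mrpl3 19 bases before it. The NRF-1 motif of Mrpl39 begins 125 bases before the start. The stretches of Mrps36 and Mrpl47 hold none of the 5 motifs, which says only that these letters are not in this window. Of the 14 members with a promoter sequence that were lower in knockdown than in wild-type cells by the test below, 4 held the ETS core, 2 the TGCGCA arm, 1 the YY1 motif, 1 the estrogen-related receptor motif and 0 the full NRF-1 motif. Of the other 53 members, 21, 19, 12, 3 and 3 held them.

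The 3 groups were compared gene by gene on the log2(intensity + 32) scale, with one limma model over all genes above the filter, and a gene was called when its Benjamini-Hochberg adjusted p was under 0.05. Fold changes are on that scale. Each gene is represented by its brightest probe set.

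Between knockout-control and wild-type cells few members differed. In knockout-control 4 members fell (5.26% of 76) and 0 rose, where 3.5% of the 13652 genes tested fell and 2.55% rose, so the share of members that fell was near that of all genes. The 4 were Mrps6, Mrpl3, Mrpl40 and Mrps22, with 1.54-fold to 2-fold lower values. The other 72 did not pass, among them Mrps25 (-0.96 ± 0.26, adjusted p = 0.0658) and Mrpl13 (-0.62 ± 0.16, adjusted p = 0.0591). In all, 15 of 76 members had an unadjusted p under 0.05 by limma, against 2885 of the 13652 genes tested. The median log2 difference over the members was -0.12 (quartiles -0.27 and 0.06), against 0.00 over all genes. Values lay below 0 in 50 of 76 (65.8%), against 50% of all genes. In 38 members both knockout-control arrays lay below both wild-type arrays and in 16 above, where 29.9% and 27.8% of all genes did so.

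Mrps6, a small-subunit protein with a bacterial counterpart (S6), was at 4554 and 4694 in wild type, 2073 and 2543 in knockout-control, and 3195 and 2493 in knockdown. Both wild-type arrays were far above the rest, and the other groups overlapped. It was 2-fold lower in knockout-control than in wild type (SE 0.17 on the log2 scale, adjusted p = 0.0143). A second Mrps6 probe set gave 3412 and 3171, then 1749 and 1759, then 2292 and 1921, the same order. Slc5a3, a myo-inositol transporter gene overlapping Mrps6 in the gene table and chosen after its values were seen, was at 1651 and 1447, then 754 and 793, then 1036 and 964. It was 1.96-fold lower in knockout-control (adjusted p = 0.00731), and since probe positions are not used here, how far these probe sets read the same transcripts was not tested.

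Mrpl3, whose bacterial counterpart L3 reaches towards the peptidyl transferase centre, was at 3127 and 3101 in wild type, 1847 and 1945 in knockout-control, and 1700 and 1456 in knockdown. It fell by 0.71 ± 0.15 on the log2 scale in knockout-control (adjusted p = 0.0275). Its other probe sets above the filter gave -1.05, -0.25 and -0.05. Mrpl40, a large-subunit protein without a bacterial counterpart, was at 2393 and 2567, then 1524 and 1664, then 1585 and 1417. Mrps22, a small-subunit protein also particular to mitochondria, was at 2058 and 2146, then 1256 and 1450, then 1440 and 1243. Both were lower in knockout-control than in wild type, by 1.55-fold (adjusted p = 0.0418) and 1.54-fold (adjusted p = 0.0492), and in both the knockout-control and knockdown arrays overlapped. Leaving out 1 of the 4 arrays compared ended each of these 4 calls, save that Mrps6 was kept without knockout-control array 2. The highest adjusted p was 0.127 for Mrps6, 0.234 for Mrpl3, 0.358 for Mrpl40 and 0.354 for Mrps22, and the number of members called lay between 0 and 8 over the 6 fits that left out 1 array, with 8 without either knockdown array.

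Among the members with higher values in knockout-control none passed in the main fit. After quantile normalization 1 of the 9 members called was higher, and with only the 2 groups compared 1 of 8 was. Mrps30, a large-subunit protein despite its name, had the highest difference, with 1262 and 1294 in wild type, 1723 and 1892 in knockout-control, and 1889 on the single knockdown array with a value (0.49 ± 0.15, adjusted p = 0.106). Mrpl36, a small protein with a bacterial counterpart, was at 1090 and 1030, then 1413 and 1402, then 1104 and 1059 (0.40 ± 0.14, adjusted p = 0.134), so its knockout-control arrays stood above all others. Mrpl1, of the L1 stalk through which spent tRNA leaves, gave 0.41 ± 0.23 (adjusted p = 0.364), while its second probe set gave -0.13. Mrpl32 and Mrpl38, both of the large subunit, gave 0.26 ± 0.22 and 0.27 ± 0.21.

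Knockdown of PGC-1beta in the cells without PGC-1alpha gave 2 calls among the members. Against knockout-control Mrps36 and Mrpl34 fell (2.63% of 76) and 0 rose, where 0.564% of the 13649 genes tested fell and 0.271% rose. Mrps36 is the member outside the ribosome, and without it 1 of 49 large-subunit members (2.04%) and 0 of 26 small-subunit members were called. The median over the members was -0.16 (quartiles -0.37 and -0.03), against -0.01 over all genes, and 64 of 76 lay below 0 (84.2%, against 51.1%). An unadjusted p under 0.05 by limma was reached by 15 of 76 members and by 1930 of the 13649 genes tested. In 24 members both knockdown arrays lay below both knockout-control arrays, in 1 above, in 49 they overlapped and in 2 a value was missing, where 20.9% of all genes lay below without overlap and 16.8% above.

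Mrps36 was at 2204 and 2072 in wild type, 2138 and 2470 in knockout-control, and 1004 and 807 in knockdown. The knockout-control and wild-type arrays overlapped, and both knockdown arrays were far below them. Mrps36 fell by 1.32 ± 0.16 on the log2 scale, 2.5-fold (adjusted p = 0.0181), and 0.134 was the highest adjusted p, without knockout-control array 2; the call was also lost without array 1 of that group. The other proteins of the 2-oxoglutarate dehydrogenase complex, named after their values were seen, were Ogdh, Dlst and Dld. Ogdh, the decarboxylating subunit, was at 4137 and 3939, then 3561 and 3276, then 1521 and 1261, 2.43-fold lower in knockdown than in knockout-control (adjusted p = 0.0155; 0.138 at most with 1 array left out, lost without either knockout-control array). Dlst, the succinyltransferase, was 1.84-fold lower (adjusted p = 0.0448), a call kept in 1 of 6 fits with an array left out (adjusted p up to 0.263). Dld, the dihydrolipoamide dehydrogenase shared with other complexes, did not pass (-0.73 ± 0.25, adjusted p = 0.239).

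Mrpl34, a small large-subunit protein with a bacterial counterpart, was at 2556 and 2332 in wild type, 2753 and 2718 in knockout-control, and 1582 and 1443 in knockdown. The knockdown arrays lay below all 4 others, and the gene was 1.79-fold lower than in knockout-control (-0.84 ± 0.14, adjusted p = 0.0435). That call held in 1 of 6 fits with an array left out, the one without knockdown array 1, and the adjusted p reached 0.255 without knockout-control array 1. A second, dimmer Mrpl34 probe set above the filter was at 269 and 314, then 281 and 242, then 219 and 185. It gave -0.33 against knockout-control and -0.47 against wild type. For knockout-control against wild type it gave -0.14, where the brightest probe set gave 0.16. Over all members, the median difference was -0.34 without knockdown array 1, against -0.09 over all genes. Larger than that of Mrpl34, but short of the threshold, was the difference of Mrpl47, with -0.93 ± 0.18 (adjusted p = 0.0575). After Mrpl34 in size came Mrpl55, with -0.80 ± 0.15 (adjusted p = 0.0564), and Mrpl12, with -0.75 ± 0.17 (adjusted p = 0.0927). The single member with both knockdown arrays above both knockout-control arrays was Mrps18a, a paralogue of the bacterial S18 placed in the large subunit, at 1986 and 1651 against 1544 and 1634 (0.19 ± 0.15, adjusted p = 0.644). The smallest differences among the members whose groups did not overlap and were lower were -0.07 for Mrps11, -0.15 for Mrps15, -0.21 for Mrpl41 and -0.25 for Mrps28, and none of these passed.

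The members differed more from wild type in knockdown than in knockout-control, in a comparison where genotype, siRNA and line cannot be told apart. In knockdown against wild-type cells 16 members fell (21.1% of 76) and 0 rose, where 6% of the 13644 genes tested fell and 4% rose. The median over the members was -0.30 (quartiles -0.58 and -0.08), against -0.03 over all genes. On knockdown array 1 the members' median against the wild-type mean was -0.11, and on array 2 it was -0.50. By limma 33 of 76 members had an unadjusted p under 0.05, against 3478 of the 13644 genes tested. In 44 members both knockdown arrays lay below both wild-type arrays, in 0 above, in 30 they overlapped and in 2 a value was missing, where 29.9% of all genes lay below without overlap and 24.2% above. Among the 16 were 8 large-subunit proteins (Mrpl3, Mrpl12, Mrpl13, Mrpl34, Mrpl40, Mrpl42, Mrpl47 and Mrpl55), 7 small-subunit proteins (Mrps5, Mrps6, Mrps16, Mrps22, Mrps25, Mrps31 and Mrps35) and Mrps36. This comparison shares its arrays with the other comparisons, so its calls are no independent count.

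**Figure D1:**
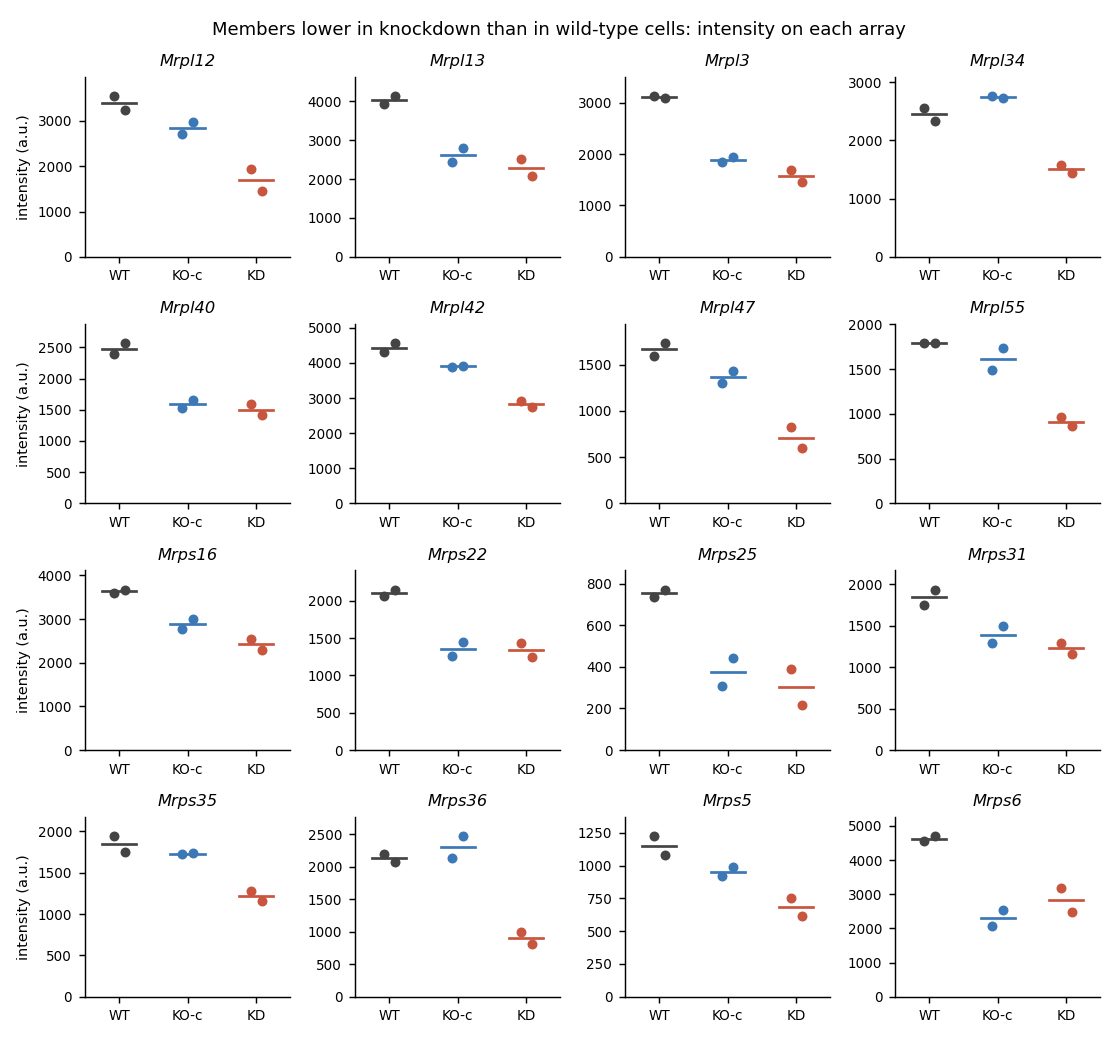
Intensity (arbitrary units, linear axis from 0) of the 16 members called lower in knockdown (KD) than in wild-type (WT) cells, with knockout-control (KO-c) between them; points are arrays and bars are means of 2 arrays. In each panel both knockdown points lie below both wild-type points. Mrps36 and Mrpl34 keep knockout-control points at wild-type level or above. Among those with low knockout-control points are Mrps6, Mrpl3, Mrpl40 and Mrps22, and also Mrps25 and Mrpl13, which did not pass in knockout-control against wild type.

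In the large subunit Mrpl47, which lies by the tunnel through which the new protein leaves, was at 1597 and 1734 in wild type, 1304 and 1434 in knockout-control, and 825 and 599 in knockdown. It was 2.31-fold lower in knockdown than in wild type (-1.21 ± 0.18, adjusted p = 0.00541), and the arrays of the 3 groups did not overlap. Mrpl12, of the L7/L12 stalk that recruits translation factors, was at 3544 and 3246, then 2720 and 2976, then 1946 and 1450, 2-fold lower (SE 0.17, adjusted p = 0.0109), also in 3 steps without overlap. Mrpl3 (values above) was 1.96-fold lower (adjusted p = 0.00583), and its other probe sets above the filter gave -1.36, -0.50 and -0.16. Mrpl55, a large-subunit protein without a bacterial counterpart, was at 1791 and 1787, then 1485 and 1739, then 968 and 860, 1.93-fold lower (adjusted p = 0.00748).

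Mrpl13, a large-subunit protein with a bacterial counterpart, was at 3934 and 4125 in wild type, 2442 and 2803 in knockout-control, and 2514 and 2066 in knockdown, 1.76-fold lower than in wild type (adjusted p = 0.0165). Its knockdown and knockout-control arrays overlapped. Mrpl42, of the large subunit and particular to mitochondria, was at 4301 and 4566, then 3898 and 3922, then 2913 and 2743, 1.56-fold lower (adjusted p = 0.0235), and there the 3 groups did not overlap. With the mean of its probe sets in place of the brightest, Mrpl42 gave 0.76, the opposite direction (limma, adjusted p = 0.728). Only 1 of its 2 probe sets lay above the filter, so that mean includes a dim one. Mrpl40 was 1.64-fold lower (adjusted p = 0.0191) and Mrpl34 1.6-fold lower (adjusted p = 0.0212).

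In the small subunit Mrps25, a protein without a bacterial counterpart, was at 736 and 770 in wild type, 308 and 444 in knockout-control, and 388 and 217 in knockdown, 2.43-fold lower in knockdown than in wild type (-1.28 ± 0.26, adjusted p = 0.0185). Another Mrps25 probe set gave the opposite sign (0.38), the one case among the 6 called members with more than 1 probe set above the filter where the signs differed. Mrps5, which has a bacterial counterpart near the entry site of the messenger RNA, was at 1222 and 1081, then 917 and 990, then 749 and 612, 1.67-fold lower (adjusted p = 0.0242). Mrps6 was 1.63-fold lower (adjusted p = 0.0395) and Mrps22 1.56-fold lower (adjusted p = 0.035). Mrps16, with a bacterial counterpart, was at 3597 and 3671, then 2780 and 2999, then 2533 and 2303, 1.5-fold lower (adjusted p = 0.0366). Mrps31 and Mrps35, both particular to mitochondria, were 1.49-fold lower (adjusted p = 0.0495) and 1.5-fold lower (adjusted p = 0.0383).

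Mrps36, apart from the ribosome, was 2.33-fold lower in knockdown than in wild type (-1.22 ± 0.16, adjusted p = 0.00377). It and Mrpl47 were the members called in all 6 fits that left out 1 array, with highest adjusted p-values of 0.0357 and 0.0451. Without either wild-type array the number called was 2, with Mrpl3, Mrpl12, Mrpl13, Mrpl34, Mrpl40, Mrpl42, Mrpl55, Mrps5 and Mrps25 at adjusted p-values up to 0.245 there. Mrps6, Mrps16, Mrps22, Mrps31 and Mrps35 were called only without knockdown array 1, with adjusted p-values up to 0.372. The median over the members was -0.50 without that array and -0.11 without knockdown array 2, against -0.10 and 0.04 over all genes.

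Other members chosen by role or rank did not pass. Mrps12, at the decoding centre, was at 1285 and 1298 in wild type, 1060 and 1269 in knockout-control, and 1071 and 714 in knockdown (-0.54 ± 0.20, adjusted p = 0.131 against wild type). Mrps27, a pentatricopeptide-repeat protein, gave -0.66 ± 0.23 (adjusted p = 0.107), Mrps34 gave -0.50 ± 0.15 (adjusted p = 0.0797), and Mrpl44, which has a ribonuclease III-like fold, gave -0.49 ± 0.21 (adjusted p = 0.187). Mrpl45, at the tunnel exit facing the inner membrane, gave -0.17 ± 0.19 (adjusted p = 0.628). The 3 paralogues of bacterial S18 gave -0.11 ± 0.15 (Mrps18a), -0.08 ± 0.17 (Mrps18b) and -0.27 ± 0.21 (Mrps18c). Mrpl18, which binds 5S rRNA in bacteria, and Mrpl39 had low values but missed the threshold, with -0.92 ± 0.25 (adjusted p = 0.056) and -0.86 ± 0.24 (adjusted p = 0.059). Mrps30 was again the highest, with 0.55 ± 0.18 (adjusted p = 0.103, 1 knockdown array).

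The brightest member probe sets in wild type were those of Mrpl51, Mrpl15, Mrps6, Mrpl42 and Mrpl13. Mrpl51, a large-subunit protein without a bacterial counterpart, was at 6059 and 6222 in wild type, 6761 and 6865 in knockout-control, and 5282 and 4147 in knockdown (-0.39 ± 0.16 against wild type, adjusted p = 0.168). Mrpl15, with a bacterial counterpart, was at 5583 and 5659, then 5949 and 6218, then 4257 and 4472 (-0.36 ± 0.14, adjusted p = 0.136). Both had their knockdown arrays below all 4 others and their knockout-control arrays above wild type, and neither passed. The probe sets of Mrpl15 disagreed in size, another one being at 455 and 487, then 90 and 129, then 141 and 136. In a limma fit of single probe sets it gave -1.84 in knockout-control against wild type (adjusted p = 0.000973). In knockdown against wild type it gave -1.56 (adjusted p = 0.00182). Every Mrpl15 probe set above the filter was lower in knockdown than in wild type, while in knockout-control their signs differed. Those of Mrpl51 disagreed too, and its other ones gave 0.22 and -0.02 in knockdown against wild type. Small differences with groups that did not overlap were -0.18 for Mrpl4, -0.24 for Mrpl46, -0.27 for Mrps21 and Mrpl2, and -0.30 for Mrpl10.

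**Figure D2:**
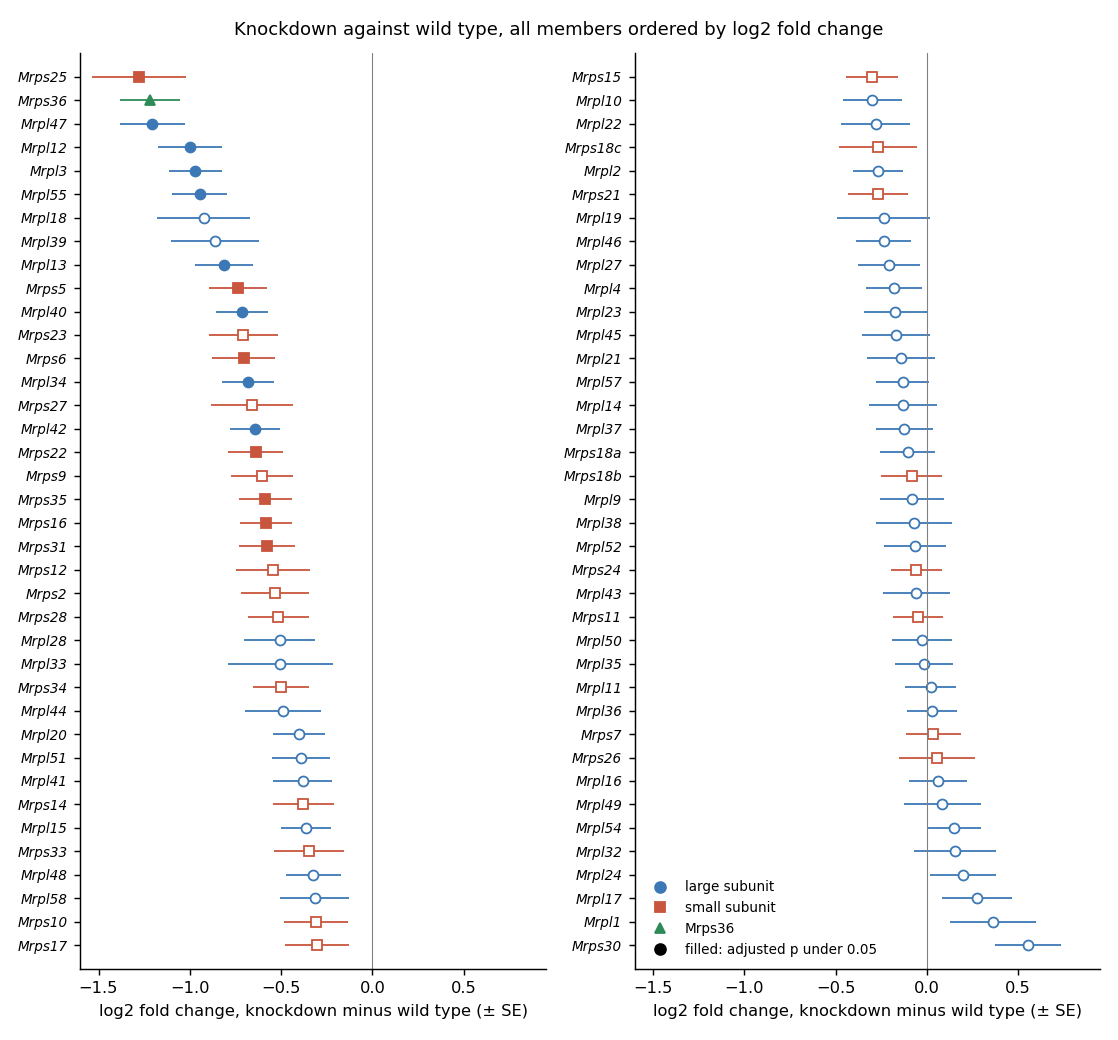
Log2 fold change of knockdown minus wild type (points, with SE as bars) for all 76 members, ordered from lowest at the top left to highest at the bottom right; circles are large-subunit proteins, squares small-subunit proteins, the triangle is Mrps36, and filled symbols have an adjusted p under 0.05. The 16 filled symbols lie between -1.28 (Mrps25) and -0.58, and no symbol to the right of 0 is filled.

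By subunit, 8 of 49 large-subunit members and 7 of 26 small-subunit members fell in knockdown against wild type, with medians of -0.21 and -0.51. Against knockout-control the medians were -0.13 and -0.16, with 1 and 0 called, and for knockout-control against wild type -0.08 and -0.17, with 2 and 2 called. Of the 44 members with a bacterial counterpart 8 fell against wild type (median -0.29), and of the 31 classed as particular to mitochondria 7 (median -0.32). In that split Mrps18c alone was counted as the counterpart of bacterial S18, and its paralogues Mrps18a and Mrps18b were put with the mitochondrial class. Differences between these classes were not tested.

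The members did not behave alike on the arrays of one group. Relative to the wild-type mean, the median over the members was -0.21 on knockout-control array 1 and -0.02 on array 2, and -0.11 on knockdown array 1 and -0.50 on array 2. Over all genes above the filter the same medians were -0.04, 0.03, 0.04 and -0.10. Knockdown array 2 lay below both knockout-control arrays in 68 of 74 members (91.9%, against 49.3% of all genes), and knockdown array 1 in 24 of 76 (31.6%, against 30.2%). Of the 74 members with a value on every array, 61 had their lowest value on knockdown array 2. Over all genes 4453 of 13344 did, more than on any other array. Over the members, the typical gap between the arrays of a group was 0.06 for wild type, 0.20 for knockout-control and 0.32 for knockdown. Over all genes above the filter it was 0.10, 0.18 and 0.27. The members' median difference of -0.16 between knockdown and knockout-control was thus smaller than their gap within the knockdown group. Without knockdown array 2 that median was -0.003, and without array 1 it was -0.34. Against wild type it was -0.11 without array 2 and -0.50 without array 1.

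**Figure D3:**
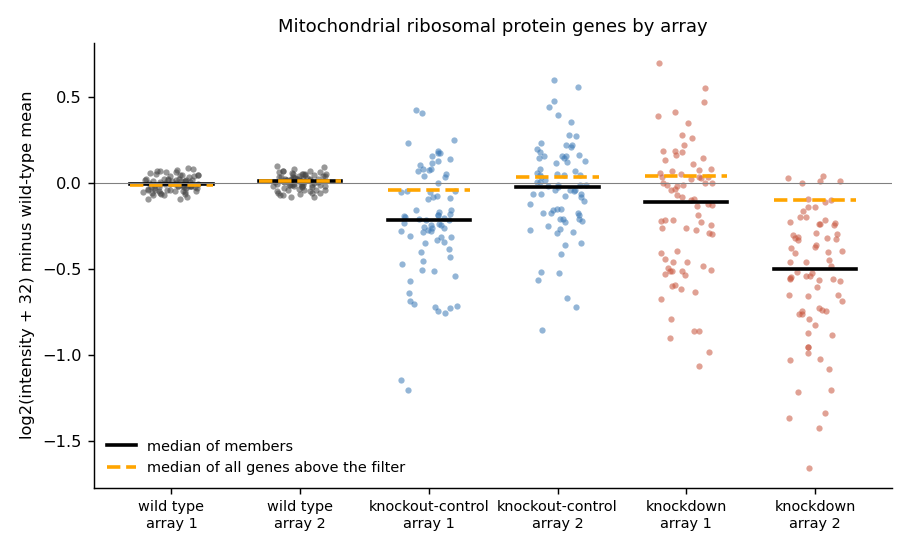
Difference of each member from its wild-type mean, log2(intensity + 32), on each of the 6 arrays; points are genes, the black bar is the median of the members and the dashed bar the median of all genes above the filter. The members sit lowest on knockdown array 2 (median -0.50), and knockdown array 1 (-0.11) lies between the knockout-control arrays (-0.21 and -0.02).

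Other gene groups differed from the members on these arrays. For 33 subunits of complex I of the respiratory chain (Nduf genes above the filter), the medians against the wild-type mean were -0.59 and -0.77 on the knockdown arrays, and all 33 lay below both knockout-control arrays on both. For 43 proteins of the cytosolic ribosome (Rpl and Rps genes above the filter) they were 0.17 and 0.11, and against knockout-control 6 of 43 lay below 0. Called lower in knockdown against wild type were 23 of 33 complex I subunits and 0 of 42 cytosolic ribosomal proteins, beside 16 of 76 members. By limma 2 of these 42 had an unadjusted p under 0.05, against 3478 of all 13644 genes tested. The difference between the groups of genes was not tested.

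**Figure D4:**
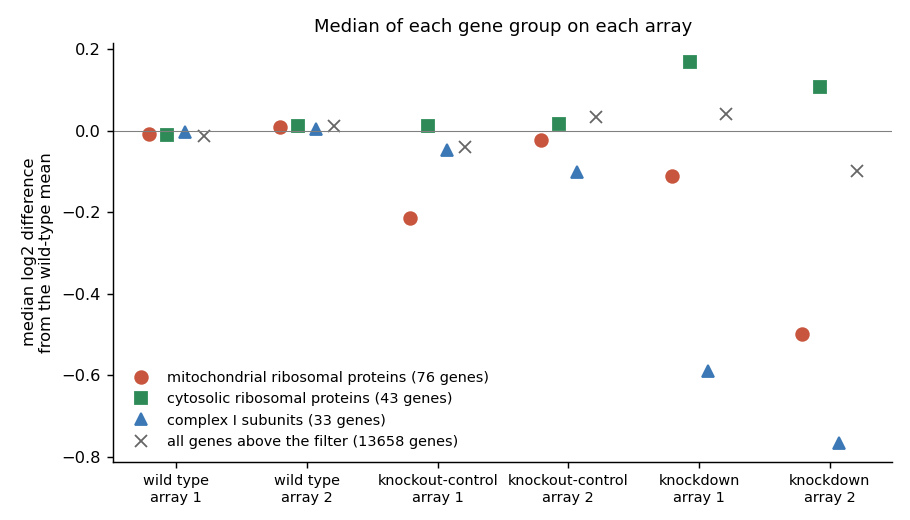
Median log2 difference from the wild-type mean on each array, for the mitochondrial ribosomal proteins (circles), cytosolic ribosomal proteins (squares), complex I subunits (triangles) and all genes above the filter (crosses). On knockdown array 1 the members (-0.11) are near all genes (0.04) and complex I is at -0.59, and on knockdown array 2 the members reach -0.50 and complex I -0.77.

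Of further mitoribosomal proteins that go by other names Dap3, Gadd45gip1, Chchd1 and Ptcd3 were tested, and 1 of these 4 fell in knockdown against wild type. It was Ptcd3, a small-subunit pentatricopeptide-repeat protein, at 1325 and 1270 in wild type, 1129 and 1244 in knockout-control, and 884 and 631 in knockdown, 1.71-fold lower (adjusted p = 0.032). Chchd1 gave -0.48 (adjusted p = 0.183), Gadd45gip1 -0.21 and Dap3, a GTP-binding protein of the small subunit, -0.17.

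Of 18 mitochondrial translation factors and tRNA enzymes 2 fell in knockdown against wild type (11.1%, against 6% of all genes) and 0 rose. Gfm1, the elongation factor that moves the ribosome along the messenger RNA, was at 1980 and 2235 in wild type, 1852 and 1975 in knockout-control, and 1215 and 853 in knockdown, 2.03-fold lower (adjusted p = 0.0129). Tufm, which brings aminoacyl-tRNA to the ribosome, was at 2668 and 2863, then 2272 and 2489, then 1934 and 1401, 1.67-fold lower (adjusted p = 0.0372). Neither initiation factor Mtif2 (-0.63, adjusted p = 0.143) nor recycling factor Mrrf (0.60, adjusted p = 0.0663) passed, and they differed in sign. In the other comparisons 0 of the 18 were called. By limma 5 (knockout-control against wild type) and 4 (knockdown against knockout-control) had an unadjusted p under 0.05. Over all genes 2885 of 13652 and 1930 of 13649 did.

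Of 25 ribosome assembly factors tested 1 fell (4%, against 6% of all genes). It was Mpv17l2, at 1809 and 1699 in wild type, 1376 and 1467 in knockout-control, and 1121 and 908 in knockdown (1.71-fold lower, adjusted p = 0.018). Of 15 genes for mitochondrial transcription and RNA handling 4 fell against wild type (26.7%) and 1 rose, where 6% of all genes fell and 4% rose. The 4 were Tfam, which packages mitochondrial DNA and starts its transcription (1.58-fold, adjusted p = 0.0298), Tfb2m, its partner at the promoter (1.62-fold, adjusted p = 0.0419), Lrpprc, which stabilises mitochondrial messenger RNA (1.84-fold, adjusted p = 0.0228), and Supv3l1, an RNA helicase (1.57-fold, adjusted p = 0.0302). Hsd17b10, an X-linked subunit of mitochondrial RNase P, was the one that rose, in knockout-control against wild type (2905 and 2866 against 5198 and 4952, 1.75-fold, adjusted p = 0.0212) and in knockdown (4766 on the 1 array with a value, adjusted p = 0.0448). With 1 array left out, Gfm1, Mpv17l2 and Lrpprc were lost without either wild-type array (adjusted p up to 0.106, 0.165 and 0.135). Tfam was also lost without knockdown array 2 (up to 0.229), and Ptcd3, Tufm, Tfb2m and Supv3l1 were kept only without knockdown array 1 (up to 0.194, 0.242, 0.253 and 0.233). Hsd17b10 was lost without any 1 wild-type or knockout-control array, at up to 0.185 in knockout-control and 0.272 in knockdown.

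Some cell type markers differed in the knockdown group. Of 7 brown adipocyte markers tested 3 fell in knockdown in either comparison, the thermogenic genes Ucp1, Cidea and Dio2. The general adipocyte markers Fabp4, Adipoq, Lpl and Pparg did not pass (-0.11, -0.11, -0.09 and -0.22 against knockout-control), and the intensity summed over 8 named markers was 56613 and 56582 in wild type, 55853 and 52490 in knockout-control, and 43624 and 42003 in knockdown. Of 4 preadipocyte and fibroblast markers 1 (Dlk1) rose in knockdown against knockout-control. Against wild type 2 rose (Dlk1 and Pdgfra) and 1 fell (Col1a1, -0.72), Thy1 did not pass (-0.38), and the intensity summed over 5 named ones was 3737 and 3165, then 2350 and 2704, then 3964 and 3583. Dlk1, a preadipocyte marker, was at 467 and 333, then 384 and 438, then 1609 and 1452. Of 3 smooth muscle markers Acta2 and Tagln were lower than in wild type in both other groups, and Myh11 did not pass (0.25 in knockout-control and -0.01 in knockdown). Of 4 macrophage, 2 endothelial and 3 skeletal muscle markers 0 were called in any comparison by limma, and 0 had an unadjusted p under 0.05. The part of these shifts in the members' values was not tested.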

How the data were processed

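The authors deposited 1 linear intensity per probe set and array for 45037 probe sets. No source used here states how probes were summarised, scaled or corrected for background. Array medians were close, so no further scaling was applied. Cells without a number (5285 holding null, 870 empty) were kept as missing, which includes Mrps30 and Mrpl17 on knockdown array 2; those 2 genes were fitted on the other 5 arrays.

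Gene symbols came from the platform's 2016 annotation, with 34945 having 1 symbol, 932 several and 9160 none here. The 76 members had 156 probe sets, 135 above the filter. Each gene was represented by the probe set with the highest mean, and genes under the 40th percentile were left out. From the deposited intensities log2(intensity + 32) was computed, and limma 3.58.1 (R 4.3.3) was fitted with group means over 6 arrays, with 3 residual and 5.45 prior degrees of freedom. P-values were adjusted by Benjamini-Hochberg over all genes tested in a comparison. The procedure was tested on simulated data. The small number of arrays, 2 a group, limits precision, and p-values measure only the spread between these arrays.

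Named members were those called, the 5 highest and 5 lowest non-overlapping ones per comparison, the 5 brightest in wild type, and a set by role; Mrpl18, Mrpl39, Ogdh, Dlst, Dld, Slc5a3, Eif2s3y, Xist and named marker genes were added after values were seen. The members and lists were chosen with earlier results of these data known. Alternatives were the filter, pseudocount, normalization, probe-set rule, moderation, samples in the fit, missing cells, replicate block and leaving out each array.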

Additional observations from a re-analysis of the deposited data

How the results depend on the processing

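The members' median kept its sign in all 36 refits of the 3 comparisons with another choice of processing. It ranged from -0.14 to -0.07 for knockout-control against wild type, from -0.18 to -0.09 for knockdown against knockout-control and from -0.31 to -0.18 for knockdown against wild type. Refits that changed only the moderation, the replicate block or the groups in the fit, or dropped the filter, leave the members' fold changes the same or nearly so. Their agreement in sign was therefore fixed beforehand. With 1 array left out it ranged from -0.21 to -0.02, from -0.34 to -0.0028 and from -0.50 to -0.11.

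The counts of members called moved more, and the cause was not tested. Shares over all genes in the same refits are not given, here or above, so a moved count is not by itself a result about the members. In knockout-control against wild type (4 called) they were 0 with no filter, 2 with a pseudocount of 1, 9 after quantile normalization, 1 with the mean of probe sets and 8 with only the groups compared, and 0 to 8 with 1 array left out. In knockdown against knockout-control (2 called) they were 0 with no filter, 4 with the filter at the 60th percentile, 1 and 4 with pseudocounts of 1 and 64, 5 after quantile normalization, 0 with the mean of probe sets, 7 with trended and robust moderation and 1 with only the groups compared, and 0 to 9 with 1 array left out. In knockdown against wild type (16 called) they were 5 with no filter and 10 with the mean of probe sets, and 2 to 29 with 1 array left out.

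The replicate numbers pair nothing in the labels, and the deviations of same-numbered arrays correlated at 0.202 (wild type with knockout-control), -0.147 (wild type with knockdown) and -0.502 (knockout-control with knockdown). With the replicate block 1, 0 and 7 members were called in the 3 comparisons. With the pairing crossed in the knockdown group, an alternative chosen after seeing the data, 9, 6 and 27 were.

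Signs turned for single genes in few cases. With the mean of probe sets Mrpl1 gave -0.27 and Mrpl42 0.92 in knockout-control against wild type, Mrpl42 0.76 in knockdown against wild type, and Mrps11 0.16 and Mrps25 0.13 in knockdown against knockout-control. Mrpl42 and Mrps11 each have 2 probe sets, of which 1 lay above the filter. After quantile normalization Mrps18a gave 0.018 and Mrps18b 0.038 against wild type and Mrps22 0.025 against knockout-control, and after median centring Mrps11 gave 0.0078 and Mrps22 0.061. With 1 array left out, values against wild type ranged from -0.011 to 0.068 for Mrpl36, -0.41 to 0.075 for Mrpl45, -0.24 to 0.026 for Mrps18a, -0.20 to 0.031 for Mrps18b and -0.54 to 3.99e-05 for Mrps18c, and against knockout-control from -0.12 to 0.091 for Mrps22 and -0.69 to 0.062 for Mrps25. Of the 1088 refits of single genes by another choice, 948 kept direction and call, 98 lost the call, 32 gained one and 10 turned sign. Many of these refits are of the kinds that leave fold changes nearly the same, so the counts overstate agreement in direction.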
